A study of Mus musculus with 4 samples.

Results

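The transcriptome described here is that of vehicle-treated C2C12 myoblasts, a mouse myoblast line, held in growth medium and given vehicle for 6 h. It was read from the 2 vehicle libraries of a series of 4, which the series design calls biological replicates, and every gene of the deposited table was used, 51826 in all. The 2 libraries that received recombinant GDF10, a secreted TGF-beta family ligand, were not used. The cell type label reads muscle stem cells, and 1 protocol label names longissimus dorsi as the source of the RNA, whereas the source and line labels name C2C12. No label gives a passage number, a density or an agent, other than the medium, shared by the groups, and cells of a line are not a tissue, so the levels describe these cultures. The 2 libraries give a spread and no contrast, and no test was made.

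C2C12 cells divide as precursors while serum is present and fuse into myotubes when it is withdrawn. Myogenic identity rests on a small family of basic helix-loop-helix (bHLH) factors, Myf5 and Myod1 in dividing precursors and Myog at the onset of differentiation, which pair with E proteins and are held back by Id proteins. Resident stem cells of muscle, the satellite cells, are defined by the paired-box factor Pax7.

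Total counts were 35597310 in vehicle 1 and 29641165 in vehicle 2. Levels are counts per 1000000 of the library total (CPM), and genes are compared with each other on CPM per kilobase of merged exon (CPM per kb). A dagger after a symbol marks a gene that shares exon bases with another annotated gene, whose counts are therefore uncertain; 4805 of the expressed genes, or 37.6%, carry this mark. Pairs of values are given as vehicle 1 and then vehicle 2.

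Expressed means at least 1 CPM in both libraries, undetected means 0 counts in both, and low means the remainder. By that rule 12790 genes, or 24.7%, were expressed, 10699 were low and 28337, or 54.7%, were undetected. Of 21793 protein-coding genes, 11533 (52.9%) were expressed, 3408 were low and 6852 (31.4%) were undetected. A count of 0 allows up to 3 counts, which is 0.0843 CPM in vehicle 1 and 0.101 CPM in vehicle 2. At 1 CPM the exact 95% Poisson interval ran from 0.708 to 1.40 CPM in vehicle 1 and from 0.683 to 1.44 CPM in vehicle 2; such intervals and limits cover counting error only. The rule draws a line through a continuum: the lower of a gene's 2 values lay from 0.5 to under 1 CPM for 1099 genes just outside and from 1 to under 2 CPM for 978 genes just inside.

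The libraries resembled each other closely but were not repeats of 1 library. Over expressed genes the median absolute log2 ratio between them was 0.10, and 134 genes (1.05%) differed at least 2-fold. The median ratio narrowed with level, from 0.21 for genes with a mean of 1 to 10 CPM to 0.10 for 10 to 100 CPM and 0.06 above 100 CPM. Pearson's r of log2 CPM was 0.992 across these 12790 genes, which are not independent replicates. Counts differed beyond sampling noise, with a chi-square of 13.8 per degree of freedom, and the coefficient of variation from edgeR's common dispersion was 10.98%. The plot of vehicle 2 against vehicle 1 shows the narrow band together with the few genes far from it.

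**Figure D1:**
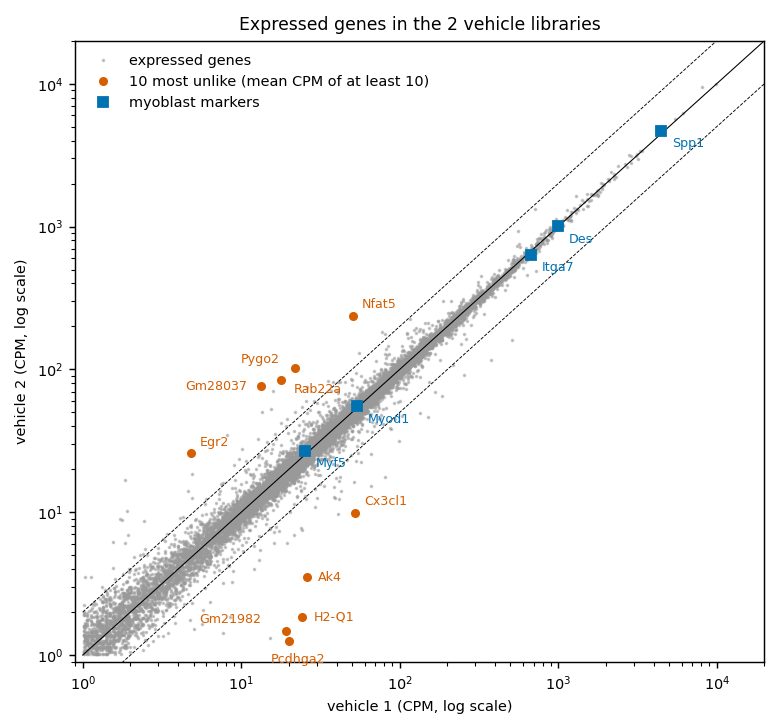
CPM of each expressed gene in vehicle 1 (x axis) and vehicle 2 (y axis), both on log scales. The solid line marks equal values and the dashed lines a 2-fold difference. Squares mark the 5 myoblast markers, which lie on the line, and circles the 10 genes with a mean of at least 10 CPM whose libraries differed most, such as Nfat5 and Cx3cl1.

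All 5 markers chosen for the line were expressed, as were 52.9% of protein-coding genes, so these genes did not go against the C2C12 label. They were chosen with earlier results of these data known, so this is no test of identity. Myod1, the determination factor of the skeletal muscle lineage, was counted at 53.8 and 55.1 CPM (mean 54.4, SD 0.960, n = 2). Its relative Myf5, which acts alongside it in precursors, stood at 25.2 and 26.9 CPM (mean 26.1, SD 1.17, n = 2). Both factors differed between libraries by less than the overall coefficient of variation.

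Des†, the intermediate filament protein of muscle precursors and fibres, reached 999.99 and 1004 CPM (mean 1002, SD 2.77, n = 2). Itga7†, the integrin subunit that binds laminin on muscle cells, reached 669 and 632 CPM (mean 650.2, SD 26.3, n = 2). Spp1† (osteopontin), a secreted phosphoprotein of matrix and inflammation, was the highest of the 5 at 4481 and 4698 CPM (mean 4589, SD 153, n = 2). On the per-length scale the order was Spp1† at 2719 and 2850.4 CPM per kb, Des† at 266 and 267, Itga7† at 82.6 and 78.1, Myod1 at 28.9 and 29.6 and Myf5 at 12.1 and 12.9, and no neighbours in that order overlapped between the libraries.

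Sequence around the start site is shown for the markers with an entry in the RefSeq promoter table (build GRCm38.p6, the assembly of mm10), with Pax7 beside them as the defining satellite cell gene and S100a4† as an abundant gene with a TATA box motif. Each run covers 250 bases before the start to 50 after it, 5′ to 3′ on the strand of the gene, with CG pairs and the motif TATAAA in capitals. They lie at chr10:107486085-107486384, minus strand (Myf5), chr1:75360042-75360341, plus strand (Des†), chr5:104434861-104435160, plus strand (Spp1†, the entry of 2 that is nearest to the annotated start), chr4:139832919-139833218, minus strand (Pax7) and chr3:90603520-90603819, plus strand (S100a4†).
Myf5: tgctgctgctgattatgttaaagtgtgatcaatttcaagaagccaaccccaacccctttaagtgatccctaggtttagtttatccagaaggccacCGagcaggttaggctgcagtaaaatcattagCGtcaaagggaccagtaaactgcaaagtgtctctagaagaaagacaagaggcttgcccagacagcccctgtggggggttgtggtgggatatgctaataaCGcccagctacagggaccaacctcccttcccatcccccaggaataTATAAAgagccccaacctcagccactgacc
Des: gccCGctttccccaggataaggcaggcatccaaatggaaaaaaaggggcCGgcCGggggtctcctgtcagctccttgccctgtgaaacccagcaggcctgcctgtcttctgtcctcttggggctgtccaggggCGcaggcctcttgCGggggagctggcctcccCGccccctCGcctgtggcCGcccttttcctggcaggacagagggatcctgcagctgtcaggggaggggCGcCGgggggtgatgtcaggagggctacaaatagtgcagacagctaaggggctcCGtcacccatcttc
Spp1: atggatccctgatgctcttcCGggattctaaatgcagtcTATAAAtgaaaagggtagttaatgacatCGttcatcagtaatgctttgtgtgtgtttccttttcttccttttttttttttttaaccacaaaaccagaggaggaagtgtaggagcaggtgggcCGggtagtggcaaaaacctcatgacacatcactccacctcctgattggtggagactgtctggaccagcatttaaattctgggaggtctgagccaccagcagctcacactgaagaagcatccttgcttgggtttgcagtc
Pax7: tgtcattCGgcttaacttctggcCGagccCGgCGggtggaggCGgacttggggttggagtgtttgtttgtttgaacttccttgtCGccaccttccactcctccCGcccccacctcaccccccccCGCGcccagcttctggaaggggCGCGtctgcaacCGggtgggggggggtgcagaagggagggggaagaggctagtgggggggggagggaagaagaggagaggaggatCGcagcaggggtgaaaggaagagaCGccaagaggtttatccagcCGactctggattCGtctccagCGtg
S100a4: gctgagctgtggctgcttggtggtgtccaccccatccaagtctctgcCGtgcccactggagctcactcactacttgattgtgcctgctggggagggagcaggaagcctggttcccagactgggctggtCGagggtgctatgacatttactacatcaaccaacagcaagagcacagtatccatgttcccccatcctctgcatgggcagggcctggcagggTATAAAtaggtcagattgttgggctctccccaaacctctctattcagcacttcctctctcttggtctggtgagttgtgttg

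These promoters held 3 CG pairs for Myf5, 11 for Des†, 3 for Spp1†, 17 for Pax7 and 2 for S100a4†, against a median of 7 over the 32851 promoters of the table. These 5 were picked with their levels known, so nothing follows from them about CG pairs and level. TATAAA, sought on the strand of the gene only, began 31 bases before the start of S100a4†, and 2.14% of all promoters in the table hold it within the window from 45 to 16 bases before the start. The Myf5 run held it from base 21 after the annotated start and the Spp1† run 211 bases before it, both outside that window, and 8.32% of all promoters hold it anywhere in the 300 bases on that strand, or 13.6% on either strand. A match of letters is a description and not a site.

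Of 14 other markers of myoblasts and satellite cells, 8 were expressed, 3 were low and 3 were undetected. The share expressed, 57.1%, was near the 52.9% of all protein-coding genes, which also stands beside the marker lists that follow. Sdc4, a heparan sulfate coreceptor of satellite cells, was counted at 269.9 and 293 CPM. Cdh15 (M-cadherin), the adhesion molecule of the muscle precursor, was counted at 148 and 148 CPM. Vcam1† stood at 163 and 166 CPM, the receptor Megf10 at 108 and 111 CPM, Met, the receptor for hepatocyte growth factor, at 93.9 and 100.1 CPM, and Ncam1† at 95.2 and 107 CPM. Cd34†, a sialomucin of quiescent satellite cells and blood progenitors, and the chemokine receptor Cxcr4 had 19.8 and 21.4 and 23.7 and 21.9 CPM. Per kb Cd34† was the lowest of these expressed genes, at 2.71 and 2.93 CPM per kb. Cxcr4, at 13.1 and 12.1 CPM per kb, lay near Met and Ncam1†. Pax7, Calcr, the calcitonin receptor of quiescent satellite cells, and Fgfr4 had 0 counts in both libraries, and Pax3, the embryonic counterpart of Pax7, had 7 and 20 counts.

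Transcripts of differentiated muscle were present at low levels. Among 18 genes of the myotube list 15 were expressed, 1 was low and Myh8 and Actn2 were undetected, and the list summed to 214 and 254 CPM. Mylpf, the fast regulatory light chain, led at 44.8 and 53.6 CPM, followed per kb by Myog at 24.0 and 23.7 CPM. Titin (Ttn†) was counted at 38.4 and 53.5 CPM, embryonic myosin (Myh3) at 14.6 and 19.6 CPM and the fusion genes Mymk and Mymx at 6.66 and 8.94 and 1.74 and 2.90 CPM. Per kb the very long Ttn† had only 0.329 and 0.458 CPM per kb, below Myh3 with 2.41 and 3.24 CPM per kb. Of the 15 expressed members 12 were higher in vehicle 2. The largest ratio between the libraries was 1.67-fold, so none reached 2-fold. Over 12774 expressed genes, those with more exon bases tended to run higher in vehicle 2. The rank correlation (Spearman's rho) between gene length and the log2 ratio of vehicle 1 to vehicle 2 was -0.147. Myotube members higher in vehicle 2 were long, such as Ttn† with 116825 exon bases, or short, such as Tnnc2† with 800 and Mymx with 1027. Ryr1†, with 21838 exon bases, was higher in vehicle 1, at 19.6 and 19.1 CPM. Whether the myotube list goes beyond the length trend was not tested. Fewer cells of a type and less RNA per cell cannot be told apart in such bulk libraries.

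Lists for other cell types had some members at 0 and some expressed. Over 8 endothelial markers only Tek passed, at 1.69 and 1.75 CPM, the list summed to 2.67 and 2.36 CPM, and Emcn and Erg were at 0. Of 10 leukocyte markers, 3 were expressed: Cd14, a lipopolysaccharide coreceptor, at 20.8 and 17.4 CPM, the lysosomal protein gene Cd68 at 3.43 and 2.97 CPM and Csf1r†, the receptor of macrophage growth factor, at 1.43 and 1.48 CPM. Adgre1, Itgam†, Cd3e† and Tyrobp were at 0, Ptprc, the pan-leukocyte marker, had 2 and 0 counts, and this list summed to 27.0 and 22.5 CPM. The erythroid list summed to 6.83 and 6.31 CPM, nearly all of it from the alpha-globin genes Hba-a1 at 4.19 and 4.22 CPM and Hba-a2 at 2.58 and 2.02 CPM, with the beta-globin genes Hbb-bs and Hbb-bt at 0. Of 8 epithelial markers the keratin genes Krt14 at 7.89 and 8.64 CPM, Krt19 at 4.30 and 9.28 CPM and Krt8† at 3.29 and 4.76 CPM were expressed, Epcam, Krt5†, Krt18 and Cldn4 were at 0, and the sum was 15.7 and 22.7 CPM. Of 11 markers of neurons and glia only Tubb3, a neuronal tubulin, was expressed, at 5.23 and 5.36 CPM, Snap25, Gad1 and Sox10 were at 0, and the sum was 7.22 and 7.15 CPM.

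Markers shared with mesenchymal cells were mixed. The fibroblast and fibro-adipogenic list had 5 of 11 members expressed and 5 undetected: Ly6a (Sca-1) at 82.8 and 80.4 CPM and Pdgfra† at 61.2 and 61.7 CPM were counted, whereas Thy1, Dpp4†, Lum, Tcf21 and Col15a1† had 0 counts. Of 8 adipocyte markers the transcription factors Cebpa† at 73.3 and 71.1 CPM and Pparg at 15.6 and 14.3 CPM and the fatty acid carrier Fabp4 at 2.42 and 3.51 CPM were expressed, Adipoq, Lep, Cidec and Ucp1 were at 0, and the sum was 91.4 and 89.0 CPM. Of 10 smooth muscle and pericyte markers 6 were expressed, with Pdgfrb at 234.54 and 238 CPM and Notch3† at 109 and 124 CPM, while Kcnj8 and Abcc9† were at 0 and Myh11 had 2 and 0 counts. The osteoblast and chondrocyte list was carried by 2 transcription factors, Sox9 at 65.0 and 65.8 CPM and Runx2† at 60.6 and 68.0 CPM. Ibsp, Sost and Acan were at 0, and 6 members were low, among them Dmp1 at 13 and 30 counts and Col10a1† at 17 and 10 counts. Of 7 cardiac markers Tnnt2, the cardiac troponin T that skeletal precursors also make, was counted at 105 and 121 CPM and Nkx2-5 at 6.49 and 6.07 CPM. Sox2 at 5.48 and 4.05 CPM was the single member expressed of 7 pluripotency markers, and Pou5f1† and Nanog were at 0. The plot of markers by cell type gives each member in both libraries, and what part other cells had in these values was not tested.

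**Figure D2:**
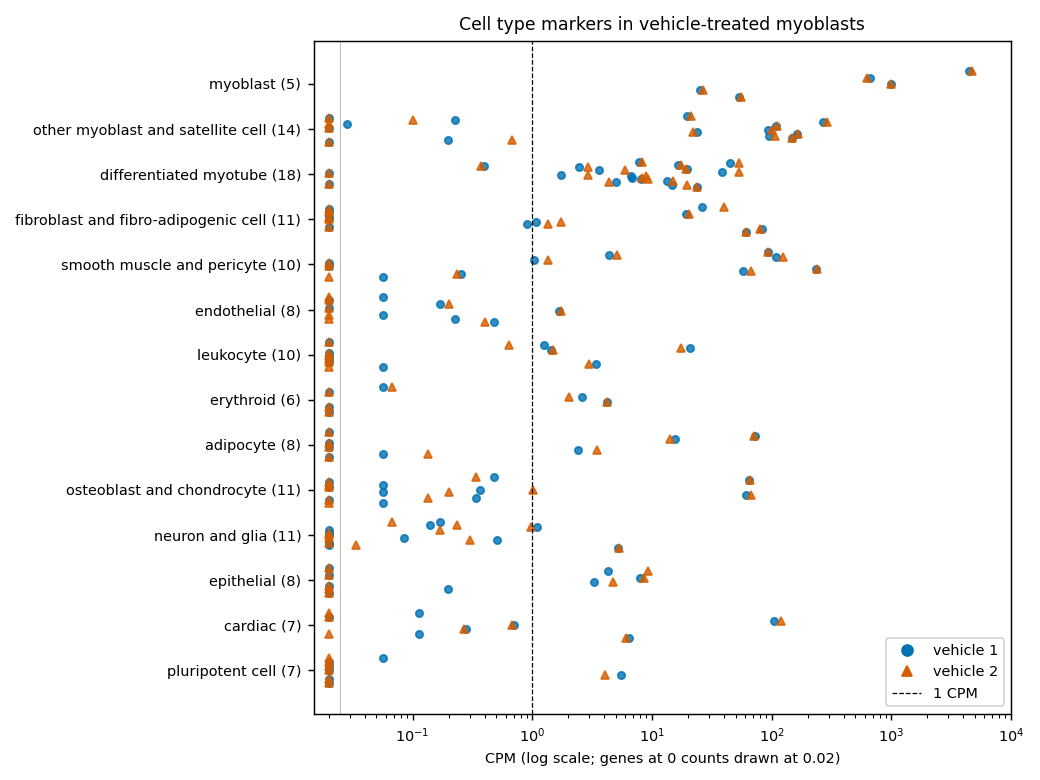
CPM of each cell type marker (x axis, log scale) by list (y axis, number of genes in parentheses), with a circle for vehicle 1 and a triangle for vehicle 2. Genes at 0 counts are drawn at 0.02 and the dashed line marks 1 CPM. The 5 myoblast markers lie between 25.2 and 4698 CPM, while most endothelial, leukocyte, neural and pluripotency markers lie below 1 CPM.

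Protein-coding genes took 96.5% of counts in vehicle 1 and 96.4% in vehicle 2. Pseudogenes took 2.46% and 2.45% from 626 expressed members of 11672, and long non-coding genes 0.852% and 0.901% from 480 expressed members of 8612. Small RNA genes, of which 32 of 6084 were expressed, took 0.0799% and 0.0852%. Those annotated as miRNA held 18016 and 15000 counts, of which Gm27597† held 6310 and 4909 and Gm26377† 4894 and 4066. Both lie within the spans of abundant protein-coding genes, Rpl19† and Eef1a1†, and share exon bases with another gene, so this share is uncertain. Of 494 immune receptor segments, which are assembled only in lymphocytes, 474 were undetected. Beside these counts by type, 24.7% of all genes were expressed and 54.7% were undetected. The 37 mitochondrially encoded genes took 2.46% and 2.45%.

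Counts were spread over many genes. The 10 genes with most counts held 5.01% and 5.23% of each library, the 100 with most held 18.1% and 18.6%, and 974 genes in vehicle 1 and 959 in vehicle 2 sufficed for 50%. At least 100 CPM was reached by 2282 and 2262 genes and at least 1000 CPM by 82 and 84. Among expressed protein-coding genes the median was 36.7 and 36.4 CPM, the 10th percentile 4.61 and 4.66 CPM and the 99th percentile 800.3 and 814.8 CPM.

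The 10 genes with the highest mean CPM encode mitochondrial respiratory subunits, elongation factors, matrix proteins, a chaperone, a glycolytic enzyme and a galectin. mt-Co1†, a subunit of cytochrome c oxidase, led with 9972 and 10019.6 CPM (mean 9996, SD 33.7, n = 2). Fn1† (fibronectin), the matrix glycoprotein bound by alpha-5 beta-1 integrin, followed with 8077 and 9508 CPM (mean 8792, SD 1012, n = 2). Eef1a1† and Eef2, which deliver aminoacyl-tRNA and move the ribosome, had 6132 and 6199 CPM and 5421 and 5641 CPM. Next came Spp1†, the chaperone Hsp90ab1 at 3379 and 3382 CPM, Col1a2 at 3268 and 3360.1 CPM, the glycolytic enzyme Pkm† at 3136 and 3242 CPM, mt-Cytb at 3098 and 3118 CPM and Lgals1 (galectin-1) at 3169 and 2972 CPM. Fn1† was the most unequal of these 10 between libraries, with vehicle 2 the higher. In vehicle 2 alone Myh9 at 3173 CPM and Col3a1† at 3129 CPM lay above mt-Cytb and Lgals1.

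Per kilobase the order changed, since CPM counts more reads for longer transcripts. Of the 100 genes highest by CPM, 59 were among the 100 highest by CPM per kb. Lgals1 rose to the second place with 3509 and 3291 CPM per kb, S100a4†, a small calcium-binding protein of motile cells, was next with 3051 and 2824 CPM per kb, and Spp1† had 2719 and 2850.4 CPM per kb. Fn1†, a long transcript, stood at 691 and 814 CPM per kb, place 41. Col1a2 and Myh9, the non-muscle myosin heavy chain, fell to places 182 and 211 with 263 and 270.4 and 217 and 245 CPM per kb. In the per-kilobase plot mt-Co1† and Lgals1 stood clear of the genes after them in both libraries, whereas Gm28437 and mt-Co3†, which are near copies of each other, could not be ordered.

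**Figure D3:**
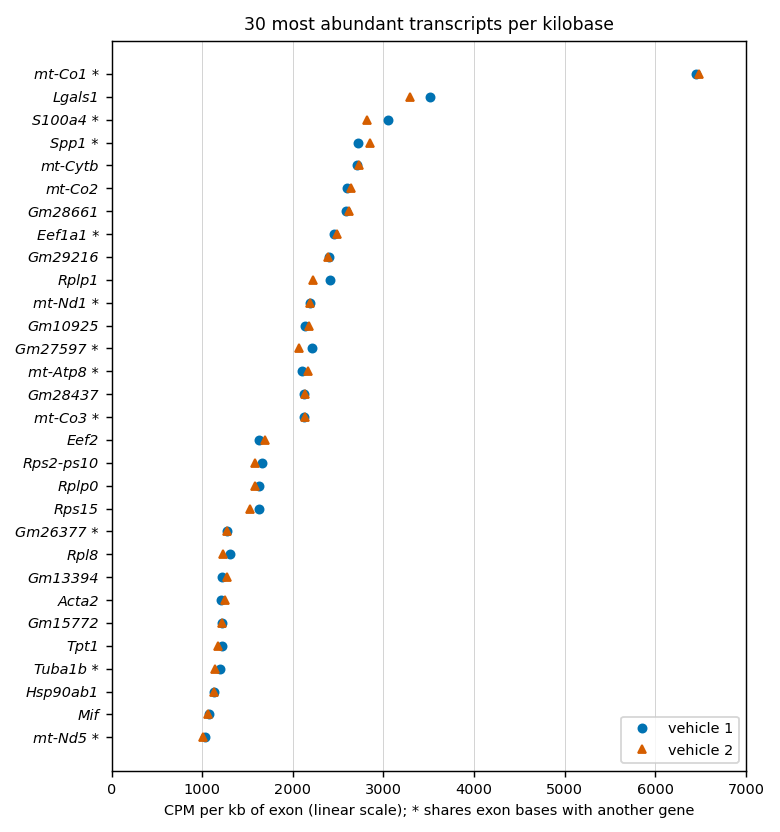
CPM per kb of exon (x axis, linear scale) of the 30 genes highest by that measure (y axis), with a circle for vehicle 1 and a triangle for vehicle 2. An asterisk marks a gene that shares exon bases with another. mt-Co1 lies near 6454 and 6485, Lgals1 next at 3509 and 3291, and the remaining genes between 1005 and 3051.

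Groups of housekeeping and structural genes were expressed nearly complete. Beside these counts, and those of the structural lists that follow, stands the 52.9% of all protein-coding genes. Of 86 cytosolic ribosomal protein genes 83 were expressed, with 4.79% and 4.57% of counts, and the 3 others were the retrogene or tissue-restricted members Rpl3l, Rpl39l and Rpl10l. Rplp1, a stalk protein of the large subunit, was highest of these with 2414 and 2219.6 CPM per kb. The 21 translation factors lacked only Eef1a2, the isoform of adult muscle and neurons, which was undetected, and took 2.43% and 2.46%. The 17 glycolytic genes and the 28 chaperone genes were all expressed, with 1.28% and 1.42% and with 2.05% and 2.00% of counts.

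The actin cytoskeleton and contractile list had 42 of 43 members expressed and took 3.08% and 3.20% of counts. Its leading member per kb was not a skeletal isoform but Acta2, the smooth muscle alpha-actin, with 1204 and 1249 CPM per kb, ahead of the cytoplasmic actins Actg1† with 733 and 739.9 CPM per kb and Actb with 715 and 735 CPM per kb. The smooth muscle protein calponin (Cnn1) was the member below threshold, at 35 and 29 counts. All 21 microtubule and intermediate filament genes were expressed, led by Tuba1b† with 1195 and 1144 CPM per kb, and Vim had 437 and 455 CPM per kb, above Des† with 266 and 267 CPM per kb. Of 73 histone genes 19 were expressed, mainly the polyadenylated replacement variants H3f3b at 637 and 605 CPM and H2afz at 377 and 336 CPM, and 50 were low. Replication-dependent histone transcripts lack a poly(A) tail, and whether the libraries were selected for poly(A) is not given in the sources used here.

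A stretch of chromosome 1 (mm10, from 24611535 to 24616197) carries 7 annotated pseudogenes that copy mitochondrial genes, and together these took 0.685% and 0.690% of counts. Their transcripts in GENCODE M21 were 99.7% to 100% identical to the mitochondrial ones over the aligned bases. Gm28437 was listed with 59298 and 49558 counts and its match mt-Co3† with 59326 and 49615 counts. Gm28661 had 62666 and 52840 counts against 63223 and 53497 counts for mt-Co2, and Gm10222† 7499 and 6212 counts against 7526 and 6249 counts for mt-Nd4l†. Gm10925, however, had 51555 and 43730 counts, above the 9708 and 8370 counts of its match mt-Atp6†, which shares bases with mt-Atp8†. Gm28438 and mt-Nd3 differ by 1 substitution in 345 aligned bases, T3C, counted from the first base of mt-Nd3, and their first 33 bases are shown to make the likeness plain, with the differing base in capitals.
mt-Nd3: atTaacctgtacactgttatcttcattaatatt
Gm28438: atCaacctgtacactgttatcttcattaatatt

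mt-Nd3 had 3505 and 2711 counts and Gm28438 3664 and 2848 counts. How reads that match both places were assigned is not given in the sources used here. Counted together, mitochondrial genes and these copies took 3.14% of counts in each library. If such reads were counted at both places, this sum repeats them. The mitochondrial genes alone took 2.46% and 2.45%.

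Transcription factors, receptors and secreted proteins were examined by family in lists of 557, 1946 and 577 genes. Of the 557 factors 306 (54.9%) were expressed, 106 were low and 145 (26.0%) were undetected, beside 52.9% and 31.4% over all protein-coding genes, so the share expressed is near the background. They held 1.87% and 1.92% of counts, with a median of 7.46 CPM per kb for expressed members against 7.57 CPM per kb for all expressed protein-coding genes. What varied was the family, from all members expressed to none, as the plot of families shows. The same 52.9% stands beside the family counts that follow. Several lay near it, such as forkhead factors at 50%, nuclear receptors at 53.1% and collagens at 54.5%.

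**Figure D4:**
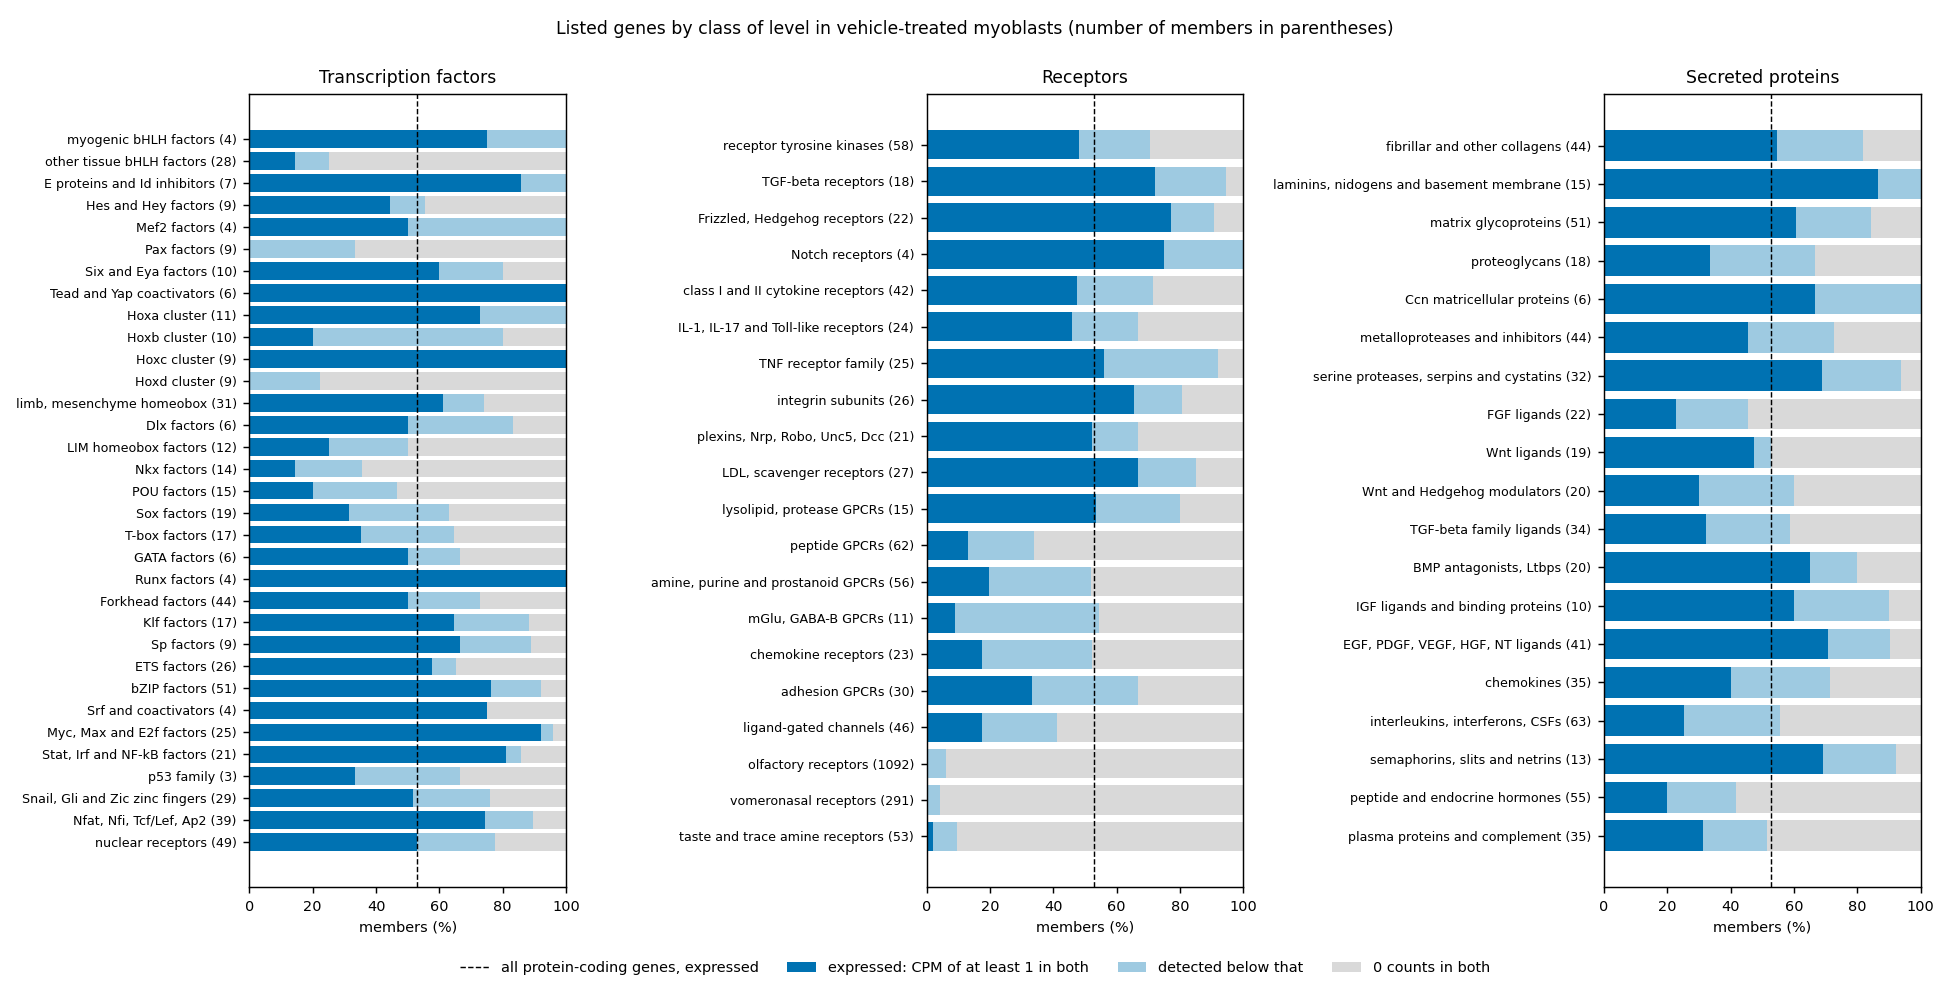
Share of members (x axis, percent) that were expressed (dark), low (light) or undetected (grey) in each family (y axis, number of members in parentheses) of transcription factors, receptors and secreted proteins. The dashed line marks the 52.9% of protein-coding genes that were expressed. Hoxc, Runx and Tead families are filled, Pax and Hoxd factors have no expressed member, and the sensory receptor families are nearly all grey.

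Of the 4 myogenic bHLH factors Myod1, Myf5 and Myog were expressed and Myf6, the factor of mature fibres, had 0 and 6 counts. Per kb Myod1 had 28.9 and 29.6 CPM per kb, Myog 16.028 and 15.9 CPM per kb and Myf5 12.1 and 12.9 CPM per kb. Their partners were present: the E protein genes Tcf3 and Tcf12 had 185 and 179.8 and 108 and 126 CPM. The Id inhibitors Id1, Id2 and Id3, which sequester E proteins, had 50.8 and 54.1, 35.8 and 34.9 and 53.7 and 58.9 CPM, and Id4† had 0 and 6 counts. Per kb, Id1 at 43.8 and 46.6 CPM per kb lay above Myod1 and near Tcf3 at 45.8 and 44.5 CPM per kb.

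Among cofactors of the muscle program the homeodomain factor Six4 stood at 51.2 and 52.2 CPM and its coactivators Eya1, Eya3 and Eya4 at 26.4 to 56.4 CPM, whereas Six2 and Eya2 were undetected. Of the Mef2 genes, Mef2d† stood at 171 and 169 CPM and Mef2a† at 40.1 and 44.5 CPM, while Mef2c, the member of differentiated muscle, had 11 and 5 counts. Srf, which drives actin and muscle genes, was counted at 131 and 139 CPM and its coactivators Mrtfa† and Mrtfb† at 99.1 and 92.5 and 50.5 and 49.1 CPM, and the cardiac and smooth muscle coactivator Myocd was undetected. All 4 Tead genes were expressed together with their coactivators Yap1† and Wwtr1 (Taz), at 135 and 136 and 121 and 123 CPM.

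None of the 9 Pax genes was expressed, and 6 of them, Pax1†, Pax2, Pax4, Pax6, Pax7 and Pax8†, were undetected. Of 28 other tissue-specific bHLH factors 4 were expressed and 21 were undetected. The expressed ones were Scx, the tendon factor, at 122 and 109 CPM, the clock-related Bhlhe40† and Bhlhe41† at 101 and 112 and 53.4 and 48.9 CPM, and Twist2† at 61.0 and 51.7 CPM. Its paralog Twist1 had 0 counts in both libraries, as had the neurogenic Neurod1† and Neurog1 and the fibroblast factor Tcf21. The Notch target Hes1 stood at 21.6 and 17.9 CPM and Hes6, which relieves Hes1 repression in myoblasts, at 44.5 and 37.3 CPM.

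Hox genes differed by cluster. Hox proteins mark position along the body, and the genes lie in 4 clusters, each read from low paralog numbers (anterior) to high ones (posterior). All 9 Hoxc genes on chromosome 15 were expressed, with a cluster sum of 197.5 and 190.3 CPM. Of 11 Hoxa genes 8 were expressed, with a sum of 115 and 119.9 CPM. Of 10 Hoxb genes only Hoxb3† and Hoxb4 passed, at 2.02 and 2.29 and 1.29 and 1.38 CPM, and the cluster summed to 6.07 and 5.97 CPM. None of the 9 Hoxd genes passed: Hoxd10† had 2 and 0 counts, Hoxd11† had 6 and 1 counts, and the other 7 were at 0.

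Within the Hoxa and Hoxc clusters paralogs 10 and 11 were the highest per kb. Per kb Hoxc10† had 32.4 and 31.6 CPM per kb and Hoxc11 25.8 and 25.2 CPM per kb, above Hoxc6 with 9.15 and 8.45 CPM per kb and Hoxc9 with 8.55 and 7.89 CPM per kb. Hoxc13, the last of its cluster, still had 6.80 and 5.72 CPM per kb, and Hoxc12 before it had 1.72 and 2.29 CPM per kb. In the Hoxa cluster Hoxa11† had 9.58 and 11.5 CPM per kb, above Hoxa10 with 9.14 and 9.50 CPM per kb in both libraries. The means of these genes differed by less than the 2 values of Hoxa11† did. Hoxa13 was low at 34 and 39 counts. The bars by paralog number show this order in both libraries.

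**Figure D5:**
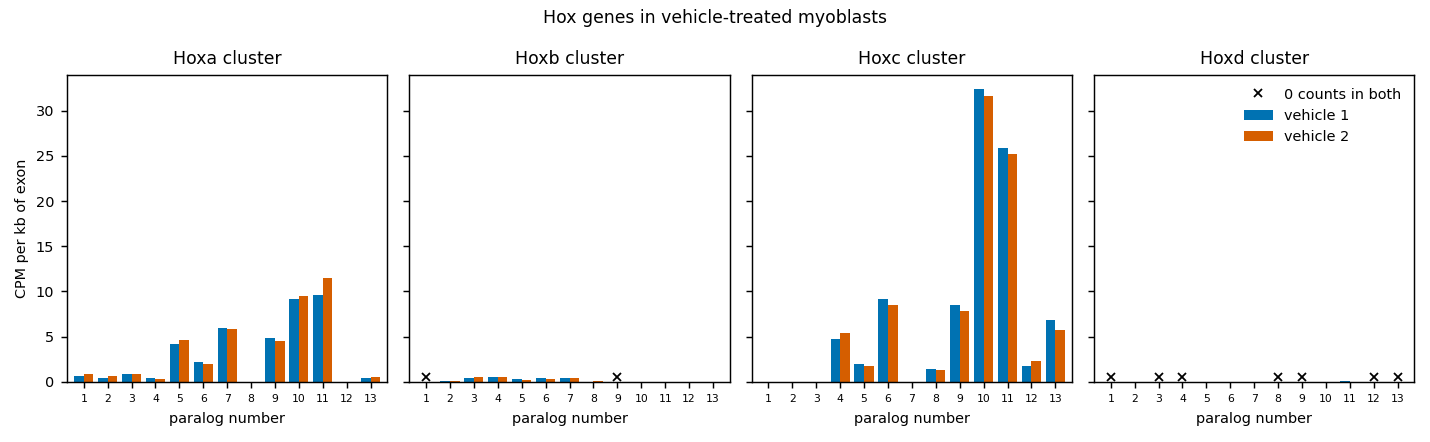
CPM per kb of exon (y axis, from 0) of each Hox gene by paralog number (x axis) in the 4 clusters, with 1 bar for vehicle 1 and 1 for vehicle 2. Crosses mark genes with 0 counts in both. Hoxc10 and Hoxc11 are the highest, the Hoxb bars stay below 1 and the Hoxd panel is nearly empty.

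Other factors of limb and mesenchyme were broadly present, 19 of 31. Prrx1 and Prrx2, homeobox genes of limb mesenchyme, had 156 and 158 and 78.8 and 71.7 CPM, Shox2† had 42.6 and 39.3 CPM and the zinc finger homeobox gene Zeb1† had 92.8 and 99.6 CPM. Pitx1†, which specifies the hindlimb, was undetected, as were Meox1, Meox2 and Alx1†. Among T-box genes Tbx15 at 34.6 and 33.5 CPM, Tbx18† at 29.047 and 30.7 CPM and Tbx3† at 31.2 and 29.2 CPM were expressed. Tbx4, of the hindlimb, had 5.06 and 5.6003 CPM, while Tbx5, of the forelimb, had 0 and 5 counts. Families tied to neural and endodermal tissues were sparse, with 2 of 14 Nkx, 3 of 15 POU and 3 of 12 LIM homeobox genes expressed.

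The highest factors per kb were bZIP proteins, of which 39 of 51 were expressed. Jun†, a core AP-1 subunit, led all listed factors with 274 and 273 CPM per kb, or 873 and 869 CPM. Atf4, the effector of the integrated stress response, had 193 and 198 CPM per kb, Cebpb† 161 and 142 CPM per kb, Fosl1† 108 and 117 CPM per kb and Creb3l1, an activator of collagen secretion genes, 94.2 and 95.1 CPM per kb. Below them per kb came Srebf2, the activator of cholesterol synthesis, with 85.0 and 86.5 CPM per kb, the retinoic acid receptor Rarg with 73.8 and 74.1 CPM per kb and Trp53 with 73.6 and 68.9 CPM per kb. Nrl, Cebpe and Batf, factors of retina and blood, were undetected.

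Factors of the cell cycle were nearly complete, with 23 of 25 Myc, Max and E2f genes expressed. Tfdp1, the partner of E2f proteins, had 181 and 206 CPM, E2f1 70.8 and 66.0 CPM, E2f4 117 and 116 CPM and Myc 71.7 and 92.2 CPM, with Myc higher in vehicle 2, and Mycn was undetected. Foxm1†, a driver of mitotic genes, was counted at 102 and 126 CPM. Of 21 Stat, Irf and NF-kB genes 17 were expressed, led per kb by Nfkb2† with 39.1 and 39.8 CPM per kb and Rela with 37.4 and 36.5 CPM per kb, and the lymphoid members Stat4†, Irf4 and Irf8 were undetected. All 4 Runx genes, counting their partner Cbfb at 104 and 101 CPM, were expressed, among them Runx1† at 149 and 163 CPM.

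Lineage factors of other tissues were expressed in part. Sox4†, Sox9 and Sox11 had 101 and 107, 65.0 and 65.8 and 75.5 and 72.4 CPM, while 7 of 19 Sox genes, including Sox10 and Sox17†, were undetected. Gata2, Gata4 and Gata3† had 35.0 and 45.8, 32.8 and 30.6 and 5.20 and 6.92 CPM, and Gata1 was undetected. Of 44 forkhead genes 22 were expressed, led per kb by Foxk2 with 39.3 and 38.7 CPM per kb and Foxs1 with 31.9 and 30.7 CPM per kb, and Foxa2, Foxb1†, Foxb2 and Foxd3† were undetected. Of 49 nuclear receptors 26 were expressed: after Rarg came Nr2f6† with 29.043 and 26.9 CPM per kb, Rara with 18.992 and 18.9 CPM per kb and Nr1h2 with 18.1 and 18.4 CPM per kb. Ppara, Hnf4a, Hnf4g and Rxrg were undetected.

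Of 510 receptors outside the sensory families 202 (39.6%) were expressed, 126 were low and 182 (35.7%) were undetected. The share expressed was below the 52.9% of all protein-coding genes, and expressed members had a median of 5.20 CPM per kb. Of 1436 olfactory, vomeronasal, taste and trace amine receptors, 1354 (94.3%) were undetected, beside 31.4% of all protein-coding genes. The 2 that passed were Olfr77† at 1.01 and 1.59 CPM and Tas1r2† at 2.11 and 1.82 CPM, and both share exon bases with another gene.

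Receptors for matrix were among the most abundant. Of 26 integrin subunits 17 were expressed. Itgb1, the beta chain shared by laminin, collagen and fibronectin receptors, had 217 and 232 CPM per kb, Itgb5 134 and 129 CPM per kb, Itga5, the fibronectin-binding alpha chain, 80.2 and 86.5 CPM per kb and Itga7† 82.6 and 78.1 CPM per kb. Itgam†, Itgax and Itgad† of leukocytes and Itga2 and Itga8† were undetected. Among endocytic receptors, 18 of 27 were expressed, led by Lrp1, a clearance receptor for proteases and lipoproteins, with 122 and 135 CPM per kb, while Lrp1b†, Lrp3†, Sorl1† and the fatty acid transporter Cd36 were undetected.

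The highest receptor per kb was Tnfrsf12a (Fn14), the receptor for the cytokine TWEAK, with 272 and 252 CPM per kb, or 526 and 487 CPM. The family had 14 of 25 members expressed, next Tnfrsf1a, a receptor for TNF, with 69.6 and 66.7 CPM per kb and Ltbr with 67.4 and 62.0 CPM per kb. Of 42 class I and II cytokine receptors 20 were expressed, among them Il13ra1, Ifngr2 and Ifngr1 with 21.7 and 23.7, 20.5 and 20.4 and 18.7 and 18.9 CPM per kb, and Il6st (gp130), the shared chain of the interleukin-6 family, with 15.8 and 14.1 CPM per kb. The lymphoid and haematopoietic chains Csf3r and Il2ra were undetected. Tlr2 and Tlr4, receptors for bacterial lipids, were counted at 34.7 and 33.2 and 25.4 and 28.2 CPM, and Tlr5, Tlr7, Tlr8 and Tlr9 were at 0.

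Of 58 receptor tyrosine kinases 28 were expressed, 13 were low and 17 were undetected. Axl, the receptor of the ligand Gas6†, stood far above the others with 192 and 195 CPM per kb, or 967 and 980.2 CPM, while Gas6† itself had 0 counts in both libraries. Next per kb were Pdgfrb with 42.8 and 43.5 CPM per kb, Epha2 with 38.2 and 40.7 CPM per kb and Fgfr1† with 38.2 and 37.7 CPM per kb. Fgfr1† was the highest of the FGF receptors, since Fgfr2† and Fgfr3† had 11 and 0 counts and 39 and 29 counts and Fgfr4 had 0. Kit, Erbb4, Insrr and Flt4 were undetected.

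Of 18 receptors and coreceptors of the TGF-beta family 13 were expressed. Tgfbr2 and Tgfbr1, the pair that binds TGF-beta, had 193 and 192 and 38.8 and 40.2 CPM, and the BMP and activin receptors Bmpr1a†, Acvr1 and Acvr1b had 110.4 and 118, 52.8 and 64.0 and 30.2 and 34.5 CPM. Acvr1c† was undetected, and Acvrl1† and Bmpr1b had 16 and 11 counts and 4 and 0 counts. Frizzled, Lrp5/6 and Hedgehog receptors were expressed in 17 of 22 cases, with Fzd1 at 44.7 and 43.3 CPM per kb, Fzd2 at 41.5 and 39.3 CPM per kb and the Hedgehog transducer Smo at 39.7 and 38.1 CPM per kb. Cdon, a cell surface protein that promotes myogenesis, stood at 106 and 117 CPM. Notch2†, Notch3† and Notch1† had 24.3 and 25.5, 13.5 and 15.3 and 1.43 and 1.39 CPM per kb, and Notch4 was low.

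The peptide, amine and chemokine families of G protein-coupled receptors were mostly not expressed. Of 62 peptide receptors 8 were expressed and 41 were undetected, and the highest per kb, the bradykinin receptor Bdkrb1, had 5.42 and 4.76 CPM; the angiotensin receptors Agtr1a, Agtr1b and Agtr2 and the endothelin receptor Ednrb were at 0. Of 56 receptors for amines, purines and prostanoids 11 were expressed, with Adora2b at 26.2 and 26.1 CPM and Ptgir at 35.4 and 38.4 CPM. Of 23 chemokine receptors 4 were expressed: Ackr3 and Cxcr4, both receptors of Cxcl12, at 89.1 and 88.5 and 23.7 and 21.9 CPM, and Cxcr6 and Ccr10 at 3.17 and 2.83 and 1.66 and 1.52 CPM. Lysophospholipid and protease-activated receptors had 8 of 15 expressed, near the 52.9% of all protein-coding genes. Among these the thrombin receptor F2r had 108 and 112 CPM per kb and S1pr1 20.1 and 23.1 CPM per kb. Of 30 adhesion receptors 10 were expressed and 10 undetected, and of 11 metabotropic glutamate and GABA-B receptors 1 was expressed. Frizzled receptors and Smo also belong to this class and were counted above, in a family with 17 of 22 expressed.

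The embryonic acetylcholine receptor of muscle was expressed as a set. Chrna1, Chrnb1, Chrnd and Chrng encode its alpha, beta, delta and gamma chains, and had 303 and 301, 38.8 and 37.2, 57.6 and 57.5 and 12.4 and 12.6 CPM. Chrne, whose epsilon chain replaces gamma at the adult synapse, had 0 and 2 counts. Per kb Chrna1 at 69.1 and 68.7 CPM per kb was about the level of Tnfrsf1a. Of all 46 acetylcholine, glutamate, GABA and glycine channel genes 8 were expressed and 27 were undetected, among them the neuronal Chrna3, Chrna4, Chrna6 and Chrna7.

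Of 577 secreted proteins 260 (45.1%) were expressed, 141 were low and 176 (30.5%) were undetected. Fewer were expressed than the 52.9% of all protein-coding genes, yet they took 6.24% and 6.64% of counts. The median of expressed members was 9.98 CPM per kb, against 7.57 CPM per kb for all expressed protein-coding genes. The weight lay in matrix: matrix glycoproteins took 2.262% and 2.476% of counts and collagens 1.19% and 1.29%.

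Of 44 collagen genes 24 were expressed and 8 were undetected. The fibrillar chains led per kb, Col3a1† with 295 and 319 CPM per kb, Col1a2 with 263 and 270.4 CPM per kb and Col1a1 with 134 and 146 CPM per kb. The alpha-2 chain of collagen I thus had the higher level, although the trimer holds more of the alpha-1 chain, and both libraries showed it. Col6a1 had 118 and 134 CPM per kb. Cartilage collagens were scarce, with Col9a1 and Col11a1 at 0 and Col2a1 at 2 and 0 counts.

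Of 51 matrix glycoproteins 31 were expressed. After Spp1† and Fn1† came Mgp, an inhibitor of calcification, with 618 and 599 CPM per kb, Sparc with 596 and 616 CPM per kb, the crosslinking enzyme Lox† with 316 and 352 CPM per kb and Thbs1† with 310.0 and 313 CPM per kb. Thbs4, Tnxb†, Vtn and Fbn2† were undetected, and so was elastin (Eln†). Basement membrane genes were nearly complete, 13 of 15, led by the nidogens Nid1† with 73.2 and 81.2 CPM per kb and Nid2† with 67.4 and 67.1 CPM per kb and by perlecan (Hspg2) with 54.2 and 62.1 CPM per kb. Of 18 proteoglycans 6 were expressed, Bgn with 111 and 122 CPM per kb far above Dcn with 4.51 and 6.90 CPM per kb, and Lum was at 0.

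Matrix turnover was represented on both sides. The inhibitors Timp1 and Timp2 had 615 and 682 CPM per kb and 329.5 and 331 CPM per kb, above the proteases Mmp14 with 62.1 and 59.7 CPM per kb and Mmp2 with 25.1 and 25.9 CPM per kb. Of 44 genes in this group 20 were expressed, and Mmp1a, Mmp7†, Mmp12† and Mmp20 were undetected. Lysosomal cathepsins, counted with the secreted proteases, were high, with Ctsd† at 287 and 282 CPM per kb and Ctsb† at 284 and 279 CPM per kb. Serpinh1, the collagen chaperone Hsp47, had 236 and 237 CPM per kb.

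Insulin-like growth factors and their binding proteins were unequal. Igfbp2, Igfbp6, Igfbp7† and Igfbp5 had 547 and 534, 418 and 396, 349 and 356 and 201 and 209.7 CPM per kb. The ligands that they bind were near the floor: Igf2† was counted at 1.60 and 2.80 CPM, just inside the threshold, and Igf1 had 12 and 28 counts. Igfbp1 was undetected. Igf2† lies beside H19† on chromosome 7, and the non-coding H19† was counted at 421 and 439 CPM.

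Of 34 TGF-beta family ligands 11 were expressed and 14 were undetected. Inhbb, the beta-B chain of activin, led with 81.5 and 81.2 CPM per kb, followed by the procollagen protease Bmp1, which is named with this family, with 35.0 and 35.8 CPM per kb, and Tgfb1 and Tgfb3† with 29.6 and 28.1 CPM per kb and 23.4 and 22.8 CPM per kb. Gdf11 was counted at 62.1 and 56.8 CPM, and its close relative Mstn (myostatin), a brake on muscle growth, had 0 counts in both libraries. Gdf10, the ligand tested elsewhere in this series, also had 0, as had Bmp2, Bmp5† and Bmp7. Extracellular antagonists and latency proteins were more complete, 13 of 20, with Fstl1 at 165 and 184 CPM per kb, the BMP antagonist Grem1 at 86.0 and 89.9 CPM per kb and Ltbp3† at 67.4 and 72.6 CPM per kb.

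Single members carried several ligand families. Fgf7 was counted at 204 and 210.1 CPM, whereas the other expressed FGF genes, Fgf2†, Fgf11, Fgf5 and Fgf10†, lay between 1.21 and 10.3 CPM and 12 of 22 were undetected. Wnt10a was counted at 137 and 132 CPM, and the other 8 expressed Wnt genes were lower per kb, next Wnt6 with 6.31 and 4.93 CPM per kb, while 9 of 19, among them Wnt3a and Wnt5a†, were undetected. Among growth factors of the EGF, PDGF, VEGF and neurotrophin group, 29 of 41, Hdgf and Csf1 led with 173 and 158 CPM per kb and 119 and 133 CPM per kb, and Vegfa had 54.9 and 65.1 CPM per kb.

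Chemokines for myeloid cells were expressed by the cultures. Of 35 chemokines 14 were expressed, with Ccl2 at 352 and 338 CPM per kb, Ccl7 at 229 and 224 CPM per kb, Cxcl1 at 131 and 135 CPM per kb and Cxcl5 at 124 and 131 CPM per kb, and Cxcl12 at 28.2 and 28.2 CPM per kb. Of 63 interleukins, interferons and colony-stimulating factors 16 were expressed and 28 were undetected. Mif stood far above the others with 1076 and 1066 CPM per kb, next Il33, an alarmin, with 38.3 and 42.9 CPM per kb, and Il2, Il3, Il5† and Il9 were at 0. Complement genes C1s1† and C3 had 141 and 138 CPM per kb and 103 and 121 CPM per kb, whereas Alb, Apoa1, Apoa2 and Trf† of liver were undetected. Hormones were few, 11 of 55, with Angptl2 at 318 and 294 CPM and Ins1, Ins2, Gcg and Ppy at 0.

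Cdkn2a, which encodes the cell cycle inhibitors p16 and p19Arf, and its neighbour Cdkn2b had 0 counts at chr4:89274471-89294653 and chr4:89306299-89311039 (mm10), and so had the annotated genes from there to Dmrta1. Whether this stretch is present in the genome of these cells cannot be told from counts. Mtap, on the other side of Cdkn2a at chr4:89137122-89181081, was counted at 203 and 197 CPM. Other inhibitors of the cell cycle were present: Cdkn1a†, a p53 target, at 181 and 194 CPM, Cdkn1b at 38.3 and 35.2 CPM and Cdkn2c at 51.6 and 47.6 CPM.

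Xist†, the RNA that coats the inactive X chromosome, was counted at 839 and 941 CPM, and its antisense partner Tsix† had 6 and 0 counts. Of 1570 annotated genes on chromosome Y 1558 were undetected, beside 54.7% of all genes. Among them were Ddx3y, Uty, Kdm5d and Eif2s3y, which male cells express widely. The 4 expressed on chromosome Y were Gm47283, Gapdh-ps15, Mid1-ps1 and Gm20775, of which 3 are annotated as pseudogenes. Malat1† and Neat1†, nuclear non-coding RNAs, were counted at 524 and 585 and 353 and 369 CPM. Meg3†, Rian† and Mirg†, non-coding genes of the imprinted Dlk1 region, were at 0.

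A few genes did not repeat between the libraries. Nfat5, the factor of the osmotic response, was counted at 50.8 and 238 CPM, Pygo2, a Wnt coactivator, at 21.9 and 102 CPM, and Rab22a†, a GTPase of endosomes, at 18.0 and 84.0 CPM, all higher in vehicle 2. Egr2, an immediate early gene, had 4.83 and 26.0 CPM, while its relative Egr1 had 203 and 193 CPM. Cx3cl1 (fractalkine) at 52.1 and 9.95 CPM, the adenylate kinase gene Ak4 at 26.1 and 3.51 CPM and H2-Q1, a class I histocompatibility gene with near-identical relatives, at 24.3 and 1.86 CPM were higher in vehicle 1. For these 7 genes the libraries disagree, and with 2 libraries neither can be called the typical one.

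For other unequal genes the sum with exon-sharing neighbours was even in some cases and not in others. Pcdhga2†, a protocadherin gene of a cluster with shared exons and the most unequal of the genes with a mean of at least 10 CPM, had 19.9 and 1.25 CPM, and its sum with the genes that share its exons was 362 and 324 CPM. Gm28037†, at 13.3 and 76.7 CPM, overlaps Zbtb11† and Rpl24†, and the 3 genes summed to 517.5 and 492.9 CPM. Gm21982†, at 19.3 and 1.48 CPM, summed with Rbm42† and Haus5† to 118 and 112.5 CPM. Gm49388† had 644 and 0 counts, and its sum with Hsd3b7†, Setd1a† and 9430064I24Rik† was 108.3 and 110.3 CPM. H1fx†, a linker histone gene, had 0 and 833 counts, the largest count among 3860 genes counted in 1 library only, and its sum with 2 neighbours, 3.79 and 31.3 CPM, stayed unequal. Pcdhb21†, another protocadherin gene, had 0 and 240 counts, and its sum with Pcdhb22† was 12.8 and 21.02 CPM, also unequal. In all 538 genes reached 1 CPM in 1 library only and are counted as low.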

How the data were processed

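RNA of C2C12 cells was sequenced, and the deposited table holds whole-number counts per gene made by the authors, not normalized. Build mm10 is named per the submitters' processing notes, which also list an aligner (HISAT2 2.0), read trimming (Trimmomatic 0.36), quality reports (FastQC 0.11.2), DESeq2 1.12.4, StringTie 1.3.3b and bedtools 2.26.0 without their roles. Strand handling, annotation and the program that counted reads were not given in the sources used here. Reads of overlapping, antisense and near-identical genes may therefore have been split, lost or counted for several genes.

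Groups came from the sample titles. Counts of both vehicle libraries were divided by the library total. Of 51826 identifiers 51633 were in GENCODE M21, which gave symbols, types and merged exon lengths; 193 were not. TMM factors (edgeR 4.0.16, R 4.3.3) were 0.997 and 1.00, and the dispersion step was checked on simulated counts. Values were handled with pandas 2.3.3. No contrast was made, and the spread over 2 libraries is the only error given.

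The gene lists held 3 symbols not found in the table, and some genes sit on 2 lists. Members and lists were chosen with earlier results of these data known. Named genes were drawn from the 30 genes highest by CPM or CPM per kb, per family up to 4 expressed members highest per kb and up to 4 undetected ones in list order, the cell type markers and the 10 most unequal genes; other named genes, such as Twist1, Mstn, Igf1, Cdkn2a, Xist, further Hox genes and the copies of mitochondrial genes, were chosen after their values were seen. RefSeq promoters covered 79.0% of expressed protein-coding genes, and 62.7% had exactly 1, under the 80% required, so the planned comparison of promoters by expression class is void. Some members of the lists are not reported here by name, though they stay in the counts of their lists.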

Additional observations from a re-analysis of the deposited data

Results flagged for a closer look

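The 193 identifiers absent from GENCODE M21 entered no gene type or family. They held 14310 counts in vehicle 1 and 11786 counts in vehicle 2, or 0.0402% and 0.0398% of each library, which is above the 3 counts that a 0 allows. Of them 16 reached 1 CPM in both libraries and 122 had 0 counts. They are pointed out as signal outside the genes described.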

How the results depend on the processing

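The number of expressed genes was 12790 at 1 CPM and ran from 13889 at 0.5 CPM to 10657 at 5 CPM, with 11754 at 1 CPM per kb, and was 13092 without vehicle 1 and 13026 without vehicle 2. Expressed transcription factors ran from 261 to 323, receptors, sensory ones included, from 159 to 228, and secreted proteins from 206 to 283 over these settings. Genes at 0 counts numbered 30456 and 30078 with 1 library each, and 32354 genes had fewer than 3 counts in both. Of 54 alternatives to a main value, 52 stayed near it, counts of genes within 1.5 times and shares within 1 SD of the 2 libraries. The 2 that moved by more than that SD were shares. Shares with 1 library left out are among the 52, and by this rule they could not have moved. Without mitochondrially encoded genes the protein-coding share was 96.39% in place of 96.45%, and the share of the 100 genes with most counts was 17.2% in place of 18.4%. Leaving out a library gave 96.4% to 96.5% for the first share, 18.1% to 18.6% for the second and 2.45% to 2.46% for the mitochondrial share. For the 5 myoblast markers, levels under TMM-scaled library sizes lay within 1 SD of the 2 libraries. The rest of their 15 alternatives left out 1 library. With 2 libraries such a value always lies within 1 SD of their mean, so that outcome was fixed in advance. The promoter alternatives were not run, since too few genes have 1 promoter in the table, and the mitochondrial share has no value once those genes are left out. No paired analysis was possible because the results describe 1 group and come from no test.

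Limits are the 2 libraries, counting rules that are not given, and depth. By counting error alone, a count of 0 allows up to 0.0843 CPM in vehicle 1 and 0.101 CPM in vehicle 2. That limit covers neither the spread between libraries nor reads counted for another gene. H1fx†, for example, had 0 counts in vehicle 1 and 28.1 CPM in vehicle 2.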

Other observations

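The share of protein-coding genes that were expressed differed by chromosome. It was 62.8% on chromosome 15, which carries the Hoxc cluster, 61.9% on chromosome 12, 42.6% on chromosome 7, 37.8% on chromosome X and 0.546% on chromosome Y, where 1 of 183 was expressed.

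Of 1883 listed genes with 0 counts in both libraries, 7 share exon bases with an expressed gene: Nkx6-2, Stat4, Cxcr5, Mfap4, Fgf20, Il27 and Epo. Epo overlaps Gnb2, which had 204.99 and 197.7 CPM, and Cxcr5 overlaps Bcl9l, which had 133.5 and 160.7 CPM. For these 7 a count of 0 cannot be told apart from reads counted for the neighbour.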
